A study of Mus musculus with 336 samples.

Results

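The genotype difference described here was measured in mouse liver at the first time label, T00, of a short course that ran over T00, T06, T12 and T24. The KO group held 3 libraries of Bmal1-/- liver and the WT group 3 libraries of wild-type liver, both on the C57BL/6 background, and these 6 libraries were chosen by their genotype and time labels from the 24 of the short course and the 336 runs of the series. Each library is 1 column of FPKM (fragments per kilobase of gene, scaled to the library), into which the authors put 2 sequencing runs. The protocols, which are shared by the whole series, describe liver cut into slices, given 100 nM dexamethasone for 15 min and kept in medium, in both genotypes alike. The labels do not give the age or number of the mice, the hour of day or the interval from dexamethasone behind T00, or the part of the gene that was deleted. They do not say whether the 3 libraries of a group came from separate animals, so the p-values measure only the spread between these libraries. For KO replicate 3, 1 of its 2 runs carries T06 as a time characteristic while its title, source and description say T00. It was kept as T00, and counts without it are given.

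BMAL1, encoded by Arntl, pairs with CLOCK or NPAS2 and activates genes through E-boxes. Among these genes are the Per and Cry repressors, which act back on the pair, the REV-ERB nuclear receptors Nr1d1 and Nr1d2, and the D-box activator Dbp. REV-ERB proteins repress and ROR proteins activate through a shared element, and Arntl is itself a target of it. In liver this circuit gives daily rhythm to genes of sugar, lipid, bile acid and drug metabolism. At a single time point a difference in overall level and a difference in the phase of a rhythm cannot be told apart.

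At T00 genes differed in both directions. Of 11476 genes averaging 1 FPKM or more, 1580 (13.8%) passed an adjusted p of 0.05 by limma on log2(FPKM + 1). In KO liver 902 of them (7.86%) were higher and 678 (5.91%) lower, and the median difference was 0.65 among the higher and -0.64 among the lower, against 0.01 over all genes tested. Of the genes that passed, 368 also differed by at least 1 on this scale (3.21% of the genes tested), 225 higher (1.96%) and 143 lower (1.25%) in KO. The KO and WT libraries did not overlap in 4329 genes (37.7%). The count of calls depended on the library left out. It was 1459 without KO replicate 1, 532 without KO replicate 2 and 577 without KO replicate 3. It was 1038 without WT replicate 1, 574 without WT replicate 2 and 799 without WT replicate 3. A fit without 1 library also has less power to call a gene. Below, KO 2 stands for KO replicate 2, and so on, and a gene whose call was lost in a fit without 1 library is named with that library.

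**Figure D1:**
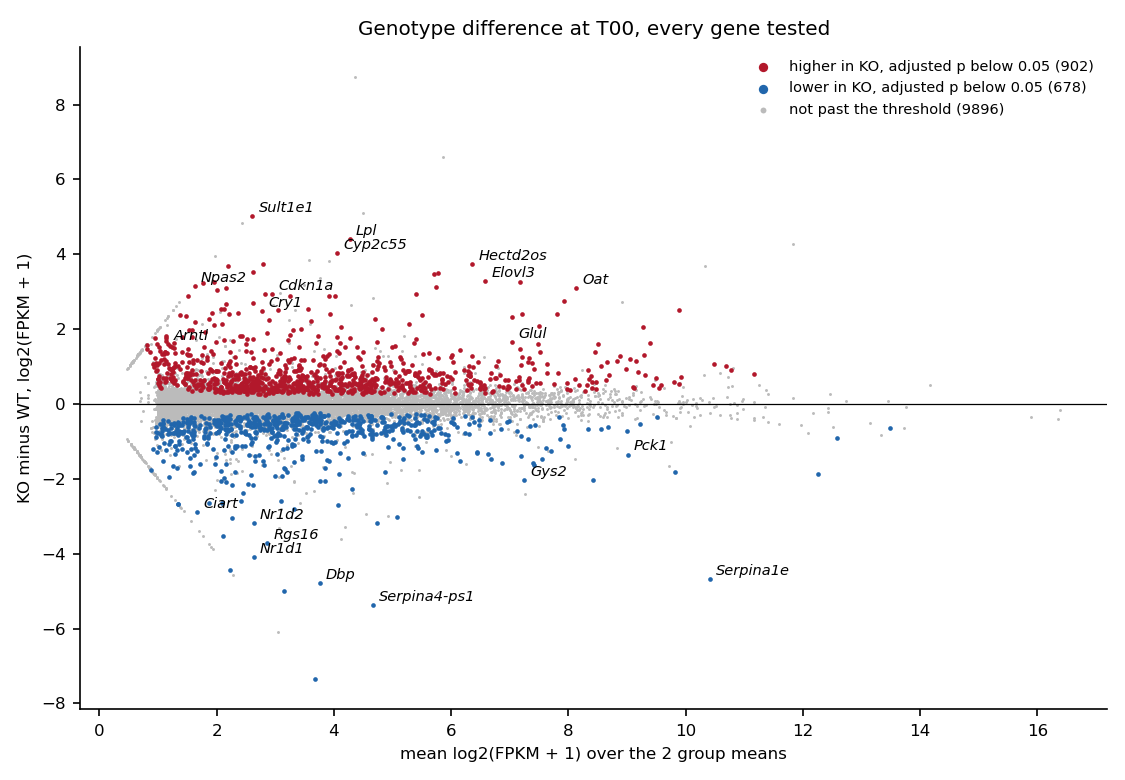
Every gene tested at T00, with the mean of the group means of log2(FPKM + 1) on the horizontal axis and KO minus WT on the vertical axis. Red points are the 902 genes higher in KO, blue points the 678 lower in KO, grey points those not past the threshold, and the named genes are clock genes and some of the largest differences.

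Libraries of 1 genotype correlated at 0.949 to 0.959 in KO and 0.935 to 0.942 in WT, and across genotypes at 0.915 to 0.935 (log2 values, genes tested). The top 10 genes made up 36.7 to 39.2% of the summed FPKM in KO and 40.5 to 43.6% in WT. FPKM give no read counts, so the depth is unknown and no counting interval is given. Albumin, which every hepatocyte transcribes, was listed at 0 in KO 2 and in all 3 WT libraries, and 71 genes whose median reached 5 FPKM were listed at 0 in some T00 library. A value of 0 is therefore given only as listed, and no fold is drawn from it.

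The positive limb of the clock was higher in KO liver. In the list of clock activators, 4 of the 5 members tested rose and none fell, beside 13.8% of all genes called, with a median difference of 1.59. Arntl had 2.73, 2.71 and 3.31 FPKM in KO liver, against 0.384, 0.126 and 0.392 FPKM in WT liver. The groups lay far apart, and the difference was 1.59 ± 0.13 (log2, SE, n = 3 each; adjusted p = 0.00257). This value sums the whole gene (GRCm38, chr7:113207465-113314126, plus strand) and so does not check the deleted part. Npas2, the partner that can stand in for CLOCK, was nearly silent in WT and expressed in every KO library, with 7.62, 8.71 and 8.33 FPKM in KO liver, against 0.0285, 0.0351 and 0.0276 FPKM in WT liver. Its difference was 3.16 ± 0.08 (adjusted p = 1.10e-04). Clock, the usual partner, had 6.39, 6.12 and 6.27 FPKM in KO liver, against 3.17, 1.99 and 2.41 FPKM in WT liver, a difference of 1.06 ± 0.13 (adjusted p = 0.00755). Rora, the ROR alpha gene, did not pass the test (0.09, adjusted p = 0.692), and Arntl2, a BMAL1 paralog, was below the 1 FPKM limit in both genotypes. The count of 4 was the same in each fit without 1 library.

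The repressors split. Of 10 tested, 5 fell and 2 rose in KO liver, with a median of -0.49. Nr1d1, which encodes REV-ERB alpha, had 0.652, 0.317 and 0.574 FPKM in KO liver, against 29, 17.6 and 28.9 FPKM in WT liver, and its difference was -4.08 ± 0.21 (adjusted p = 7.29e-04). Its exons overlap those of Thra on the other strand, which averaged 6.12 FPKM in KO and 3.45 FPKM in WT, and whether reads were counted by strand is not given in the sources used here. Nr1d2, the gene of REV-ERB beta, had 1.4, 0.95 and 0.856 FPKM in KO liver, against 17.4, 18.3 and 17.4 FPKM in WT liver, a difference of -3.18 ± 0.11 (adjusted p = 2.93e-04). Ciart, which encodes a repressor of the CLOCK and BMAL1 pair, had 0.0415, 0.198 and 0.29 FPKM in KO liver, against 8.7, 6.04 and 8.55 FPKM in WT liver, a difference of -2.89 ± 0.16 (adjusted p = 8.25e-04). In these genes every KO library lay far below every WT library.

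The Period genes did not move alike. Per3 had 0.53, 0.608 and 0.785 FPKM in KO liver, against 4.09, 5.63 and 4.55 FPKM in WT liver, a difference of -1.81 ± 0.13 (adjusted p = 0.00172). Per1 had 2.25, 2.34 and 2.63 FPKM in KO liver, against 4.92, 4.51 and 5.25 FPKM in WT liver, a smaller difference of -0.79 ± 0.09 (adjusted p = 0.00509). Per2 overlapped between genotypes, with 2.05, 4.39 and 4.38 FPKM in KO liver, against 4.05, 5.55 and 2.93 FPKM in WT liver (adjusted p = 0.709). All are repressors that bind the cryptochromes. Cry1, a cryptochrome and a strong repressor of the CLOCK and BMAL1 pair, stood on the other side, with 14.1, 14.8 and 16.7 FPKM in KO liver, against 1.38, 2.87 and 1.7 FPKM in WT liver. Its difference was 2.47 ± 0.19 (adjusted p = 0.0019), and Cry2 did not pass (0.29, adjusted p = 0.208). Nfil3, which represses D-box genes, also rose: it had 14.2, 10.7 and 13 FPKM in KO liver, against 4.76, 3.88 and 4.23 FPKM in WT liver, a difference of 1.36 ± 0.12 (adjusted p = 0.00273). Bhlhe40, a DEC repressor, did not pass and was spread widely in both groups, with 17.2, 56.6 and 45 FPKM in KO liver, against 42.4, 22.6 and 27.2 FPKM in WT liver (adjusted p = 0.764). Its relative Bhlhe41 was below the 1 FPKM limit, with 0.0793, 0.00278 and 0.00492 FPKM in KO liver, against 1.2, 0.787 and 1.45 FPKM in WT liver. Each of the 7 repressor calls was kept in every fit without 1 library.

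Clock outputs were mostly lower. Of 10 tested, 7 fell and 1 rose in KO liver, with a median of -1.26. Dbp, the D-box activator, had 1.46, 1.69 and 1.58 FPKM in KO liver, against 61.5, 73.4 and 76.3 FPKM in WT liver. Its difference of -4.79 ± 0.10 (adjusted p = 4.50e-05) was the most negative in the clock lists, and some of its exons overlap Sphk2 on the other strand (8.08 FPKM in KO and 6.15 FPKM in WT). Usp2, a deubiquitinase with daily rhythm, had 4.56, 5.09 and 7.73 FPKM in KO liver, against 24.7, 29.5 and 26.4 FPKM in WT liver, a difference of -2.06 ± 0.18 (adjusted p = 0.00273). Upp2, a liver uridine phosphorylase, had 103, 83.1 and 105 FPKM in KO liver, against 249.6, 309 and 321 FPKM in WT liver, a difference of -1.59 ± 0.14 (adjusted p = 0.00283). Nampt, the rate-limiting enzyme of NAD salvage, fell by 1.25 on the log2 scale (adjusted p = 0.0125). Its call was lost without KO 2 (adjusted p = 0.0514). Por, the reductase that feeds electrons to P450 enzymes, had a difference of -1.30 ± 0.22 (adjusted p = 0.0171), lost without KO 2, WT 2 or WT 3 (adjusted p 0.0573 to 0.0652). Alas1, the first enzyme of heme synthesis, had -1.27 ± 0.29 (adjusted p = 0.0393), lost without KO 1, KO 2, KO 3, WT 1 or WT 2 (adjusted p 0.0726 to 0.117). Tef, a Dbp relative, had -0.50 ± 0.11 (adjusted p = 0.0309), lost without KO 2, KO 3, WT 1, WT 2 or WT 3 (adjusted p 0.0601 to 0.091). Hlf, the third of these D-box activators (0.10, adjusted p = 0.821), and Wee1, a mitotic kinase (-0.68, adjusted p = 0.166), did not pass. Elovl3, an elongase of very long fatty acids that is more expressed in male liver, was the member that rose, with 386, 286 and 243 FPKM in KO liver, against 28.5, 21.9 and 41.8 FPKM in WT liver and a difference of 3.29 ± 0.27 (adjusted p = 0.00252). The count of lower outputs was 3 without KO 2 and 4 without WT 2.

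**Figure D2:**
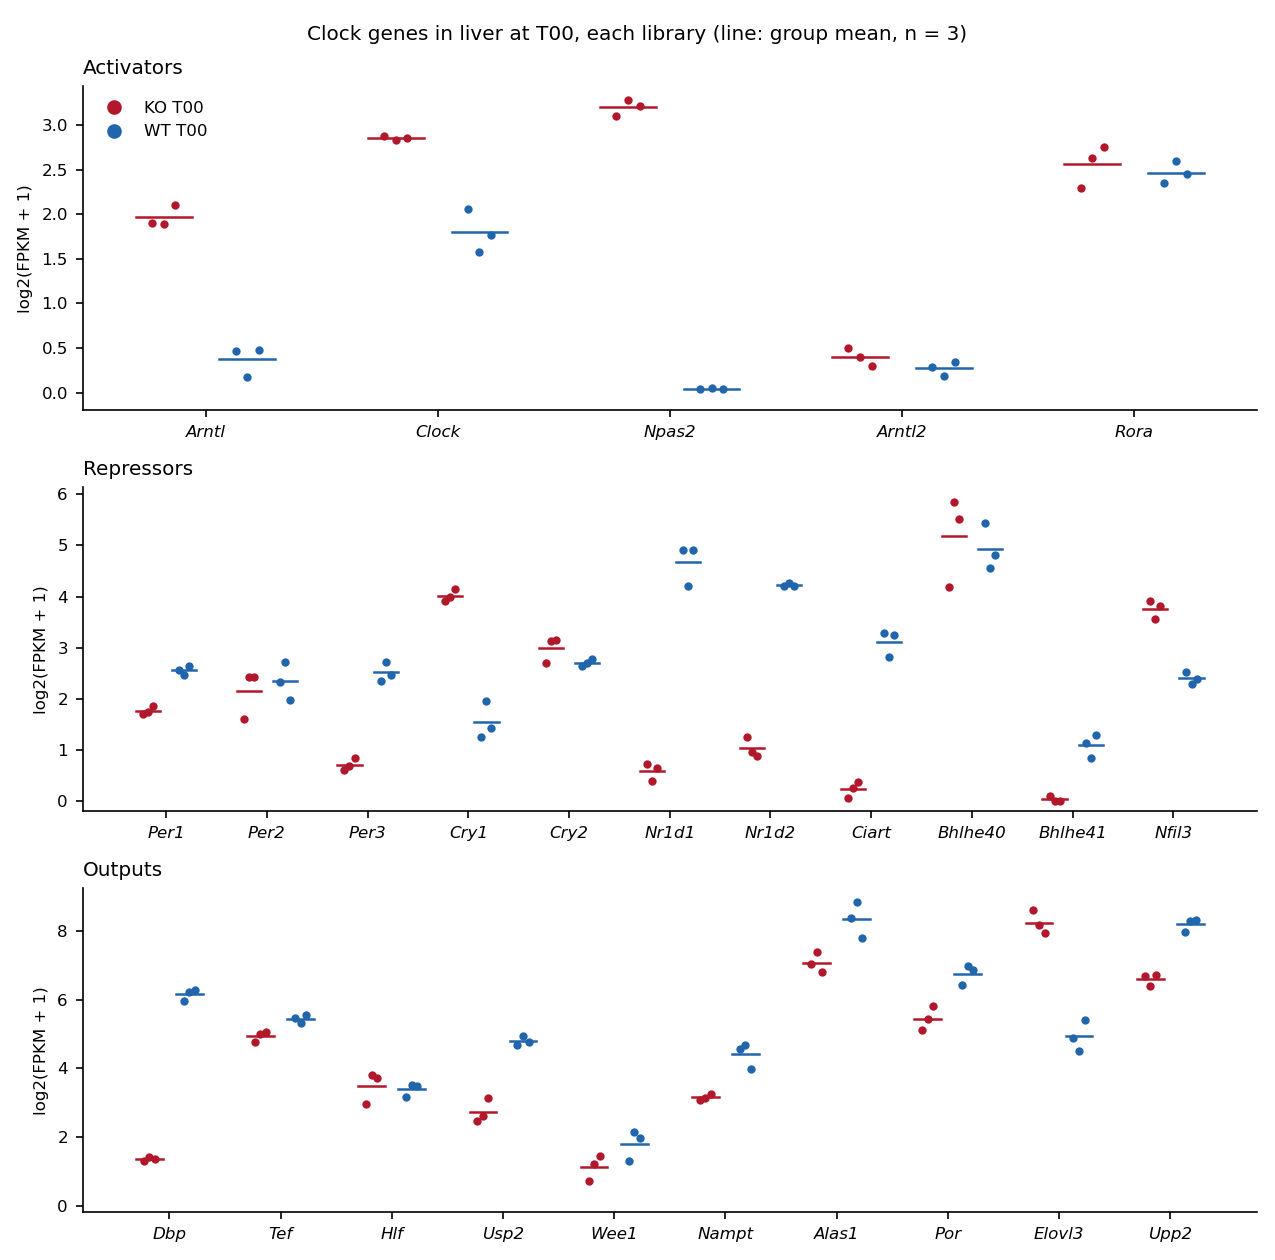
Each point is 1 library, as log2(FPKM + 1), with KO left of WT for every gene, and lines are means of 3 libraries. Npas2, Cry1 and Elovl3 stand higher in KO, Nr1d1, Nr1d2, Ciart, Per3 and Dbp stand lower, and Rora, Per2, Cry2, Bhlhe40 and Hlf overlap.

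Promoters are shown for 4 of these genes because the clock factors named above act through short motifs near such starts. RefSeq windows (GRCm38.p6, 250 bases before to 50 after a start) matched 22 of 27 clock list members and were searched on both strands for the E-box CACGTG, the ROR element TAGGTCA and the D-box TTATGNAA. No motif contains another. Ciart, which fell, held 3 E-boxes, and Cry1, which rose, held 1. The genes Arntl and Nfil3, which both rose, held 1 ROR element each, in Nfil3 on the opposite strand (TGACCTA). The 250 bases before the start of Ciart (chr3:95882229-95882478, minus strand), Cry1 (chr10:85185055-85185304, minus strand) and Nfil3 (chr13:52981040-52981289, minus strand) and 30 bases around the element downstream of the start of Arntl (chr7:113207529-113207558, plus strand) are given 5′ to 3′, with the motif in capitals.
Ciart: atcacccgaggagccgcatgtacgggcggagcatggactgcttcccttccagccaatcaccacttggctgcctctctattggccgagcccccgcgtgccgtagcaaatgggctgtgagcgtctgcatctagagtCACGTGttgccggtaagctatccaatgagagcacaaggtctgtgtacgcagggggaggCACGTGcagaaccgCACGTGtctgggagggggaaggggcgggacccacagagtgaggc
Cry1: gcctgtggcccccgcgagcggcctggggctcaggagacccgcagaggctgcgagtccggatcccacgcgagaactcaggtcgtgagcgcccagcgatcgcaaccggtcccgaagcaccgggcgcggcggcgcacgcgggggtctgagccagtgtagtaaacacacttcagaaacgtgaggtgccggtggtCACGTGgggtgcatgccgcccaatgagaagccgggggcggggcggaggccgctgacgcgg
Nfil3: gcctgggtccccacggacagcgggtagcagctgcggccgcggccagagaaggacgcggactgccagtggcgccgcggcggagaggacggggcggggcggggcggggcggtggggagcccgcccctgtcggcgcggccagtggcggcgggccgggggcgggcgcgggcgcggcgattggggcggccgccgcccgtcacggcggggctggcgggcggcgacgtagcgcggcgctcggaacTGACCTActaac
Arntl: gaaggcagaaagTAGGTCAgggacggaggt
The Ciart E-boxes begin 116, 58 and 44 bases before the start, the Cry1 E-box 60 before it and the Nfil3 element 12 before it, while the Arntl element begins at base 31 after it. Per1, Tef and Bhlhe41 also held 1 E-box each, Per1 held 1 D-box and Per3 2, and Nr1d1, Nr1d2, Dbp, Npas2, Clock, Usp2 and Upp2 held none of the 3 motifs in this window. Among all genes with a window 8.09% held the E-box, against 12.3% of the genes tested at T00, and the share was 14% in genes higher and 14.1% in genes lower in KO. The ROR element stood in 2.97% of all windows, 2.61% of the genes tested, 3.88% of the higher and 4.57% of the lower genes. For the D-box the shares were 3.99%, 2.73%, 2.95% and 4.37% in the same order. A match is a stretch of letters and not a measured site.

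Beyond the clock, the largest rises in KO liver included lipid, drug and steroid enzymes. Lpl, the lipase of circulating triglycerides, had 108, 76.4 and 80.6 FPKM in KO liver, against 4.1, 2.45 and 3.2 FPKM in WT liver. Its difference was 4.39 ± 0.19 (adjusted p = 3.04e-04), and no library came near the other group. Sult1e1, an estrogen sulfotransferase, had 120.0, 10.7 and 28.6 FPKM in KO liver, against 0.111, 0.0546 and 0.0539 FPKM in WT liver. All KO libraries were above WT but spread widely, with a difference of 5.02 ± 0.79 (adjusted p = 0.0146) that lost its call without KO 3 or WT 2 (adjusted p 0.0519 to 0.0573). The lysyl oxidase relative Loxl4 had 5.75, 12 and 12.3 FPKM in KO liver, against 0.0977, 0.088 and 0.155 FPKM in WT liver, a difference of 3.24 ± 0.27 (adjusted p = 0.00254). Ntrk2, a neurotrophin receptor, had 16.4, 8.91 and 9.02 FPKM in KO liver, against 0.248, 0.407 and 0.139 FPKM in WT liver, a difference of 3.25 ± 0.24 (adjusted p = 0.00172). Hectd2os, an antisense transcript of Hectd2, had 291, 290.1 and 311 FPKM in KO liver, against 13.4, 25.7 and 28.7 FPKM in WT liver and a difference of 3.73 ± 0.27 (adjusted p = 0.00172). Without a stated use of strand, its reads cannot be told apart from those of Hectd2 where their exons overlap. Snora28, a small nucleolar RNA inside Eif5, had 15.1, 20.8 and 46.2 FPKM in KO liver, against 0, 0 and 5.85 FPKM in WT liver. Its call (adjusted p = 0.0377) was lost without KO 1, KO 2, KO 3, WT 1 or WT 2 (adjusted p 0.0587 to 0.112), and its WT libraries 1 and 2 were listed at 0.

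The largest falls were of other kinds. Serpina1e, an alpha-1 antitrypsin copy that is more expressed in male liver, had 874, 193 and 115 FPKM in KO liver, against 8033, 5497 and 7439 FPKM in WT liver. KO 1 stood well above KO 2 and KO 3, the difference was -4.67 ± 0.72 (adjusted p = 0.014), and the call was lost without KO 2 (adjusted p = 0.0553). Serpina4-ps1, a neighbouring pseudogene, had 16.4, 0.841 and 0.894 FPKM in KO liver, against 270.1, 269 and 57.8 FPKM in WT liver, with KO 1 again the highest of its group. Its call (adjusted p = 0.0258) was lost without KO 2, KO 3, WT 1 or WT 2 (adjusted p 0.074 to 0.0904). Reads of near-identical Serpina1 copies can be split between them by the counting, so their values are uncertain. Dio1, the deiodinase that activates thyroxine, had 28.5, 6.33 and 6.73 FPKM in KO liver, against 99.2, 92.3 and 96.4 FPKM in WT liver. Its call (adjusted p = 0.0191) was lost without KO 2, KO 3, WT 1, WT 2 or WT 3 (adjusted p 0.0562 to 0.0681). Rgs16, a regulator of G protein signalling, had 0.404, 2.6 and 0.6003 FPKM in KO liver, against 19.98, 18.5 and 43.8 FPKM in WT liver, a difference of -3.72 ± 0.47 (adjusted p = 0.0078). Nat8, an acetyltransferase of cysteine conjugates, had 0.523, 0.18 and 0.16 FPKM in KO liver, against 9.88, 16.7 and 15.5 FPKM in WT liver, a difference of -3.52 ± 0.21 (adjusted p = 9.40e-04). The lectin gene Clec2h had 0.651, 0.624 and 0.73 FPKM in KO liver, against 10.6, 11.2 and 17.1 FPKM in WT liver, a difference of -3.04 ± 0.18 (adjusted p = 8.31e-04). Cib3, a calcium-binding protein gene, had 1.7, 2.86 and 4.12 FPKM in KO liver, against 34.8, 24 and 19.8 FPKM in WT liver (adjusted p = 0.00442). Mcm10, which encodes a replication factor, had 18.7, 6.21 and 3.89 FPKM in KO liver, against 97.5, 88.1 and 58.6 FPKM in WT liver, and its call (adjusted p = 0.0159) was lost without KO 2 or WT 2 (adjusted p 0.0611 to 0.0626).

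Members of the 44 gene lists are described against the background of 13.8% called. Over all lists 465 genes were tested and 104 called (22.4%), 55 higher and 49 lower in KO liver.

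Pericentral genes, those that hepatocytes around the central vein express under Wnt signalling, were higher in KO liver. Of 12 tested, 9 rose and none fell, all 12 differences were above 0, and the median was 1.13. Oat, ornithine aminotransferase, had 935, 803 and 730.5 FPKM in KO liver, against 77.4, 88.1 and 123 FPKM in WT liver, and every KO library was far above every WT library. Its difference was 3.10 ± 0.19 (adjusted p = 0.00108). Glul, glutamine synthetase, had 211, 232 and 250.4 FPKM in KO liver, against 69.2, 77.5 and 72.8 FPKM in WT liver, a difference of 1.64 ± 0.09 (adjusted p = 8.31e-04). Rhbg, an ammonium transporter, had 5.4, 4.84 and 4.28 FPKM in KO liver, against 1.46, 0.76 and 0.904 FPKM in WT liver, a difference of 1.53 ± 0.15 (adjusted p = 0.0038). Slc1a2, a glutamate transporter, rose by 1.63 ± 0.23 (adjusted p = 0.011), Gulo, of vitamin C synthesis, by 1.09 ± 0.14 (adjusted p = 0.00922), and the Wnt receptor partner Lgr5 by 0.74 ± 0.11 (adjusted p = 0.0112). The Wnt target Axin2 (0.96) was not called without KO 2, KO 3, WT 2 or WT 3 (adjusted p 0.0637 to 0.0792), the transcription factor Tbx3 (1.18) without KO 2, KO 3, WT 1 or WT 2 (adjusted p 0.0872 to 0.105), and Lect2, a secreted liver protein (1.25), without KO 1, KO 2, KO 3 or WT 2 (adjusted p 0.0624 to 0.082). The P450 genes Cyp2e1 (0.50, adjusted p = 0.282) and Cyp1a2 (0.53, adjusted p = 0.174) and the calcium regulator Rgn (0.65, adjusted p = 0.138) did not pass. The count was 5 without KO 2 and 5 without KO 3, where Lgr5 fell below the 1 FPKM limit and was not tested. In whole tissue, fewer cells of a type and less RNA per cell cannot be told apart.

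Periportal genes, of hepatocytes near the portal vein, did not share this direction. Of 10 tested, 2 fell, 1 rose and the median was -0.32. Pck1, the rate-limiting enzyme of glucose synthesis, had 326, 305 and 334 FPKM in KO liver, against 842, 873 and 756 FPKM in WT liver, a difference of -1.35 ± 0.09 (adjusted p = 0.00169). Hsd17b13, a lipid droplet dehydrogenase, had 175, 168 and 158 FPKM in KO liver, against 331, 329.6 and 294 FPKM in WT liver, a difference of -0.93 ± 0.09 (adjusted p = 0.00337). Cps1, the first enzyme of the urea cycle, rose by 0.50 ± 0.10 (adjusted p = 0.0237), a call lost without KO 2, KO 3, WT 2 or WT 3 (adjusted p 0.0728 to 0.0913).

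**Figure D3:**
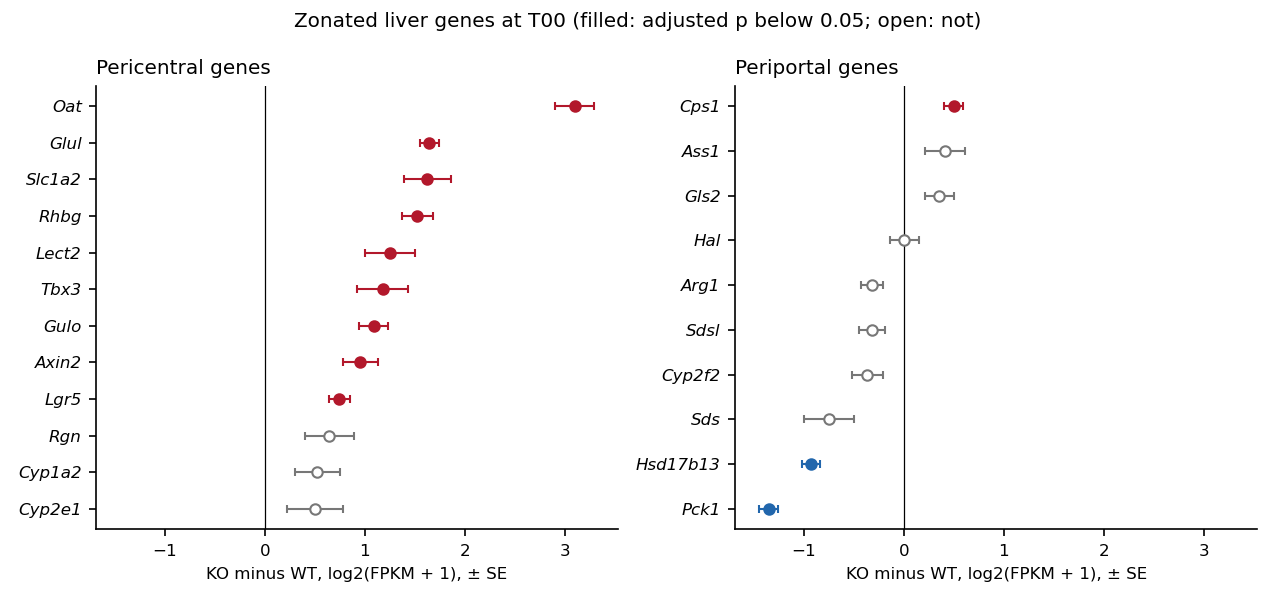
KO minus WT at T00 on the log2(FPKM + 1) scale for pericentral genes (left) and periportal genes (right), with bars of 1 SE and filled points for genes past the threshold. All 12 pericentral differences lie above 0, while Pck1 and Hsd17b13 lead a mixed periportal list.

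Ammonia handling overlapped with these lists. Of the 10 urea cycle and ammonia genes tested, 5 rose and 1 fell, with a median of 0.46. Slc25a15, the mitochondrial ornithine carrier, had 98.2, 103 and 114 FPKM in KO liver, against 60.6, 55.4 and 52.7 FPKM in WT liver, a difference of 0.89 ± 0.09 (adjusted p = 0.00459), lost in a fit of all 24 libraries (adjusted p = 0.188). Glud1, glutamate dehydrogenase, rose by 0.56 ± 0.09 (adjusted p = 0.0172), lost without KO 2, KO 3 or WT 2 (adjusted p 0.0651 to 0.0721). Nags, which makes the activator of CPS1, rose by 0.69 ± 0.12 (adjusted p = 0.0171), lost without KO 2, KO 3 or WT 2 (adjusted p 0.0647 to 0.0679). Asl, argininosuccinate lyase, was the member that fell, with a difference of -0.66 ± 0.14 (adjusted p = 0.0351), and that call was lost in each of the 6 fits without 1 library. The higher count was 2 without KO 2, without KO 3 or without WT 2.

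Xenobiotic P450 enzymes were higher in KO liver. Of 17 members tested, 8 rose and 1 fell, with a median of 1.07, and the summed level of the list was 9693 to 11431 FPKM in KO, against 3733 to 7033 FPKM in WT. Cyp2c55 had 52.3, 70.8 and 78 FPKM in KO liver, against 1.46, 4.74 and 3.9 FPKM in WT liver, a difference of 4.03 ± 0.34 (adjusted p = 0.00254). Cyp2b10, the classic target of the CAR receptor, had 6.99, 23.5 and 21.3 FPKM in KO liver, against 0.112, 0.381 and 0.348 FPKM in WT liver, a difference of 3.68 ± 0.43 (adjusted p = 0.00652), with KO 1 the lowest of its group and still above WT. Cyp2c70, which makes muricholic bile acids, had 887, 805 and 728 FPKM in KO liver, against 354, 341 and 362 FPKM in WT liver, a difference of 1.19 ± 0.10 (adjusted p = 0.00268), lost in a fit of all 24 libraries (adjusted p = 0.0657). The abundant Cyp2c29 had 1972, 2609 and 2279 FPKM in KO liver, against 223, 553 and 506 FPKM in WT liver (adjusted p = 0.0112), and Cyp2c37 averaged 297 ± 42.9 FPKM in KO and 60.8 ± 21.9 FPKM in WT (SD, n = 3 each; adjusted p = 0.00834). Cyp3a11 rose by 1.07 ± 0.23 (adjusted p = 0.0349), lost without KO 1, KO 2, KO 3, WT 2 or WT 3 (adjusted p 0.0519 to 0.115), Cyp2c50 by 1.29 ± 0.22, lost without KO 2, KO 3 or WT 2 (adjusted p 0.0509 to 0.0702), and Cyp2c54 by 1.61 ± 0.25, lost without KO 2 or WT 2 (adjusted p 0.0502 to 0.0572). No receptor gene was among the rises. Nr1i3, which encodes CAR, did not pass (0.01, adjusted p = 0.98), and Nr1i2, which encodes PXR, had -0.48 ± 0.11 (adjusted p = 0.0433), lost without KO 1, KO 2, KO 3, WT 2 or WT 3 (adjusted p 0.0837 to 0.129). Cyp2a5, a coumarin hydroxylase, was the lowest member by difference and did not pass (-1.46, adjusted p = 0.0755). The P450 rises numbered 5 without KO 2 and 5 without WT 2. The Cyp2c and Cyp2b genes are close paralogs, as are Gstm2 and Gstm3, and the split of their reads is uncertain.

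Conjugation and transport genes stood out among other lists. Gstm3, a glutathione transferase and the member of the NRF2 list that rose (1 of 11), had 131, 207 and 224 FPKM in KO liver, against 9.24, 19.7 and 19.5 FPKM in WT liver, a difference of 3.49 ± 0.34 (adjusted p = 0.00355). Its paralog Gstm2 had 181, 169 and 169 FPKM in KO liver, against 9.76, 16.7 and 19.4 FPKM in WT liver, a difference of 3.47 ± 0.24 (adjusted p = 0.00155). In the bile acid list 2 of 17 rose and none fell. Slco1a4, a bile salt and drug uptake carrier, had 34.9, 34.5 and 33.1 FPKM in KO liver, against 5.14, 9.17 and 8.9 FPKM in WT liver, a difference of 2.04 ± 0.20 (adjusted p = 0.00365). Hsd3b7, of bile acid synthesis, rose by 0.83 ± 0.17 (adjusted p = 0.031), lost without KO 1, KO 2, KO 3, WT 1 or WT 2 (adjusted p 0.0627 to 0.105).

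Glucose genes moved in both directions, 3 up and 3 down of 14. Gys2, liver glycogen synthase, had 79.2, 68.8 and 72.5 FPKM in KO liver, against 226, 409.7 and 306 FPKM in WT liver, a difference of -2.04 ± 0.22 (adjusted p = 0.00483). The glycogen targeting subunits of protein phosphatase rose: Ppp1r3c had 22.4, 59.2 and 46.9 FPKM in KO liver, against 6.57, 1.78 and 7.17 FPKM in WT liver (adjusted p = 0.0214), lost without KO 2 or KO 3 (adjusted p 0.0732 to 0.076), and Ppp1r3b had a difference of 1.72 ± 0.34 (adjusted p = 0.0257), lost without KO 2, KO 3, WT 2 or WT 3 (adjusted p 0.077 to 0.0898). The glucose carrier Slc2a2 had a difference of -0.73 ± 0.15 (adjusted p = 0.0281), lost without KO 1, KO 2, KO 3, WT 2 or WT 3 (adjusted p 0.061 to 0.0951), and Pck1 is given above.

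The lists of fat metabolism differed in their share of calls, and Lpl and Elovl3 are given above. In the fatty acid oxidation and PPAR alpha list 1 of 18 rose and 3 fell (22.2%, beside 13.8% of all genes). Pdk4, which restrains entry of pyruvate into the citric acid cycle, had 5.62, 7.33 and 8.41 FPKM in KO liver, against 0.561, 0.802 and 1.25 FPKM in WT liver, a difference of 2.12 ± 0.19 (adjusted p = 0.00273). Cpt1a, the gate of mitochondrial fatty acid entry, had 40.8, 34.6 and 31.2 FPKM in KO liver, against 60.7, 63.2 and 65.7 FPKM in WT liver, a difference of -0.82 ± 0.11 (adjusted p = 0.00943), lost in a fit of all 24 libraries (adjusted p = 0.072). The call of the lipid droplet gene Cidec (-0.89 ± 0.18, adjusted p = 0.0281) was lost without KO 2 or KO 3 (adjusted p 0.0898 to 0.092). Without WT 2 or WT 3 Cidec fell below the 1 FPKM limit and was not tested. Among 13 lipogenesis genes 1 rose, Elovl5, a fatty acid elongase (1.02 ± 0.22, adjusted p = 0.0352), a call lost without KO 1, KO 2, KO 3, WT 1, WT 2 or WT 3 (adjusted p 0.0586 to 0.0858). Fasn, fatty acid synthase, overlapped between genotypes, with 51.6, 139 and 237 FPKM in KO liver, against 215, 439 and 200.4 FPKM in WT liver (adjusted p = 0.247). Of 18 cholesterol genes none was called by limma and 2 had an unadjusted p below 0.05, with a median of 0.25.

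Iron, heme and NAD genes held single members of interest. Hfe2, hemojuvelin, a co-receptor that raises hepcidin, had 34.1, 33.2 and 39.3 FPKM in KO liver, against 17.2, 14 and 18.8 FPKM in WT liver, a difference of 1.05 ± 0.13 (adjusted p = 0.00703). Slc40a1, the iron exporter ferroportin, had 21.2, 24 and 19.7 FPKM in KO liver, against 36.7, 37.7 and 36.9 FPKM in WT liver, a difference of -0.75 ± 0.09 (adjusted p = 0.00629), lost in a fit of all 24 libraries (adjusted p = 0.109). Hamp2, a hepcidin copy, had 227, 504 and 775 FPKM in KO liver, against 32.9, 95.4 and 29.3 FPKM in WT liver, and its call (adjusted p = 0.0218) was lost without KO 2, KO 3, WT 1 or WT 3 (adjusted p 0.0639 to 0.0773). These made 2 higher and 1 lower of 14 in the metallothionein and iron list. In the NAD list 1 of 12 rose, Nnmt, nicotinamide methyltransferase (1.13 ± 0.24, adjusted p = 0.0314), lost without KO 1, KO 2, KO 3, WT 2 or WT 3 (adjusted p 0.0729 to 0.105). Nampt and the nicotinamide riboside kinase Nmrk1 fell in that list, and Nmrk1 had 12.1, 9.54 and 9.999 FPKM in KO liver, against 20.01, 30.3 and 17.6 FPKM in WT liver (adjusted p = 0.0291), lost without KO 2, KO 3 or WT 1 (adjusted p 0.0608 to 0.0991). Of 8 heme genes Alas1 fell and Uros rose (0.60 ± 0.11, adjusted p = 0.0204), lost without KO 2, KO 3, WT 1 or WT 2 (adjusted p 0.0584 to 0.0769).

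Hormone and stress lists were close to the background or mixed. Of 13 glucocorticoid response genes, 2 rose and 2 fell, with a median of 0.59. Sult1e1 and Tsc22d3, GILZ (0.81 ± 0.18, adjusted p = 0.0349), rose, and Fkbp5, a chaperone of the receptor (-1.13 ± 0.19, adjusted p = 0.0171), and Klf9 (-0.65 ± 0.15, adjusted p = 0.0418) fell. The call was lost for Tsc22d3 without KO 1, KO 2, KO 3 or WT 3 (adjusted p 0.0728 to 0.101), for Fkbp5 without KO 3 or WT 3 (adjusted p 0.0505 to 0.0529) and for Klf9 without KO 2, KO 3, WT 1 or WT 3 (adjusted p 0.091 to 0.132). In the integrated stress response 2 of 12 rose and 3 fell. Ddit4, an mTOR inhibitor, had 5.82, 7.36 and 6.42 FPKM in KO liver, against 2.54, 1.42 and 1.82 FPKM in WT liver, a difference of 1.38 ± 0.16 (adjusted p = 0.00636). Herpud1, of protein degradation at the endoplasmic reticulum, had 153, 98.4 and 89.9 FPKM in KO liver, against 283, 308 and 342 FPKM in WT liver, a difference of -1.48 ± 0.21 (adjusted p = 0.0112). The Herpud1 call was lost in the fit with a block on replicate number (adjusted p = 0.0502). Asns, asparagine synthetase, had 0.398, 0.0914 and 0.278 FPKM in KO liver, against 2.65, 1.64 and 3.8 FPKM in WT liver (adjusted p = 0.0144), lost without KO 2 or KO 3 (adjusted p 0.0516 to 0.0547). Trib3 (-1.15) was lost without KO 1, KO 2, KO 3, WT 1 or WT 2 (adjusted p 0.0529 to 0.113). Without WT 3 it fell below the 1 FPKM limit and was not tested. Atf5 (0.78) was lost without KO 2, KO 3, WT 1, WT 2 or WT 3 (adjusted p 0.0725 to 0.109). Of 18 heat shock genes 1 rose and 2 fell, led by Hspb1, the small heat shock protein HSP25, with 0.896, 0.475 and 0.595 FPKM in KO liver, against 4.71, 4.55 and 3.51 FPKM in WT liver (adjusted p = 0.00273). No member of the lists of 14 immediate early genes, 13 ETS factors, 9 IGF axis genes, 15 nuclear oxidative phosphorylation genes, 9 mitochondrial transcripts, 6 histones or 4 Y-linked genes tested was called by limma. At an unadjusted p below 0.05 these lists held 3 immediate early genes, 1 ETS factor, and 2 members each of the IGF, oxidative phosphorylation, mitochondrial and histone lists, and 0 Y-linked genes.

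The inflammatory list had 3 lower of 9 tested, and the interferon list 3 lower of 16, with no member higher. Kupffer cell markers summed to 176 to 195 FPKM in KO and 202 to 266 FPKM in WT, and their part in these lists was not tested. Nfkbia, the inhibitor of NF-kappa B, had 18.8, 14.6 and 15.1 FPKM in KO liver, against 26.2, 28.9 and 30.3 FPKM in WT liver (adjusted p = 0.0121), lost without KO 3 or WT 2 (adjusted p 0.0504 to 0.0507). The chemokine Cxcl1 had 4.98, 5.11 and 5.23 FPKM in KO liver, against 19.3, 11.8 and 9.24 FPKM in WT liver (adjusted p = 0.0289), lost without KO 1, KO 2, KO 3 or WT 2 (adjusted p 0.0667 to 0.0915). Ifit3, an interferon-induced gene, had 4.53, 4.27 and 4.58 FPKM in KO liver, against 6.21, 6.23 and 6.49 FPKM in WT liver (adjusted p = 0.0126), lost without KO 2 or WT 2 (adjusted p 0.0528 to 0.0602). Differences in the remaining 3, Icam1, Rtp4 and Zbp1, were between -0.55 and -0.31 and their calls were lost in every fit without 1 library. Calls were near or below the background among acute phase genes, with 1 higher and 1 lower of 20, and among redox and ribosomal genes, with 1 higher of 15 and 1 higher of 13. In the ribosomal list 11 differences were above 0 and 2 below. The genotypes did not overlap in 7 of these 13 genes, all higher in KO, beside 37.7% of all genes tested in either direction.

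Of the members tested, 7.69% of p53 targets and CDK inhibitors and 42.9% of cell division genes were called. Cdkn1a, which encodes the CDK inhibitor p21, had 22.8, 19.2 and 19.1 FPKM in KO liver, against 1.71, 1.47 and 2.27 FPKM in WT liver. The groups were about an order of magnitude apart with little spread, a difference of 2.93 ± 0.13 (adjusted p = 3.04e-04), and it was the 1 called of 13 p53 targets and CDK inhibitors. The p53 targets Mdm2 (-0.08, adjusted p = 0.657) and Ccng1 (0.29, adjusted p = 0.0788) did not pass. Of 7 cell division genes tested 3 were called, beside 13.8% of all genes. Mcm6, a replicative helicase subunit, rose with 2.85, 3.42 and 3.52 FPKM in KO liver, against 0.978, 0.977 and 0.946 FPKM in WT liver (adjusted p = 0.00273). Rrm2 (-0.79) and Ccnd1 (-0.72) fell, with calls lost in 5 of the 6 fits without 1 library each.

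Genes near Arntl on chromosome 7 had 3 higher and none lower of 9 tested. Parva, an actin-linked focal adhesion protein gene, had 29.8, 27.4 and 35.4 FPKM in KO liver, against 13.7, 15.7 and 14.9 FPKM in WT liver, a difference of 1.01 ± 0.11 (adjusted p = 0.00541). Mical2 had 0.88 ± 0.13 (adjusted p = 0.0131), lost without KO 2 or WT 2 (adjusted p 0.0517 to 0.0529), and Insc 0.88 ± 0.20 (adjusted p = 0.037), lost without KO 2, KO 3, WT 1, WT 2 or WT 3 (adjusted p 0.0803 to 0.115).

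In the sex-biased lists, 7 male-biased genes had a difference below 0 and 3 above 0. Of 10 female-biased genes 8 were below the 1 FPKM limit, and the 2 tested lay above 0. That list summed to 0.835 to 3.89 FPKM in WT, against 8.08 to 20.2 FPKM in KO. Its genes passed the limit mainly through KO, so their sign shows no direction of the list. Of 10 male-biased genes 1 rose (Elovl3) and 2 fell, Serpina1e and Cyp2u1, whose call was lost without KO 2, KO 3, WT 2 or WT 3 (adjusted p 0.0564 to 0.0673). Of 2 female-biased genes tested Cyp2c40 rose, with 7.67, 8.49 and 12.7 FPKM in KO liver, against 0.552, 0.602 and 1.37 FPKM in WT liver (adjusted p = 0.00322). The Y-linked Ddx3y, Eif2s3y, Kdm5d and Uty were expressed in all 6 libraries, from 2.54 to 44.7 FPKM, and Xist was at most 0.115 FPKM.

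Cell type markers were read to see which cells the libraries held. Hepatocyte genes other than Alb were expressed in all libraries, and 2 of 12 were lower in KO: Apoa1, the main HDL protein (-0.90 ± 0.19, adjusted p = 0.0305), lost without KO 2, KO 3, WT 1, WT 2 or WT 3 (adjusted p 0.0583 to 0.111), and Trf, transferrin (-0.63 ± 0.15, adjusted p = 0.0441), lost in every fit without 1 library. All 13 Kupffer cell markers had a difference below 0 and 1 passed, the scavenger receptor Marco (-1.25 ± 0.23, adjusted p = 0.0221), lost without KO 2, KO 3, WT 1 or WT 3 (adjusted p 0.0601 to 0.0762). Of 12 endothelial markers 11 had a difference below 0 and 1 above, and 1 passed, Stab1 (-0.80). Its call was lost without KO 2, KO 3, WT 2 or WT 3 (adjusted p 0.095 to 0.117). The endothelial list summed to 139 to 204 FPKM in KO and 149 to 225 FPKM in WT. Outside the marker lists, 13 of 14 immediate early genes also lay below 0 and 1 above. Of 7 stellate markers tested none passed and 1 had an unadjusted p below 0.05 (56.2 to 117 FPKM in KO, 57.5 to 72.2 FPKM in WT), and of 4 cholangiocyte markers Sox9 rose, a call lost in every fit without 1 library (sum 34.8 to 77.9 FPKM in KO, 40.8 to 105 FPKM in WT). Lymphocyte and neutrophil markers were low, with 2 tested in each list, none called and 1 in each at an unadjusted p below 0.05. Erythroid genes differed most: 4 of 5 fell, from -1.17 for Hbb-bs to -2.05 for Hbb-bt, and the list summed to 257 to 323 FPKM in KO, against 422 to 861 FPKM in WT, with no marker at 0. That count was 2 without KO 1, where Hbb-bt stayed and Alas2 joined, and 0 without KO 2, KO 3, WT 2 or WT 3. The part that these cells had in the other differences was not tested.

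**Figure D4:**
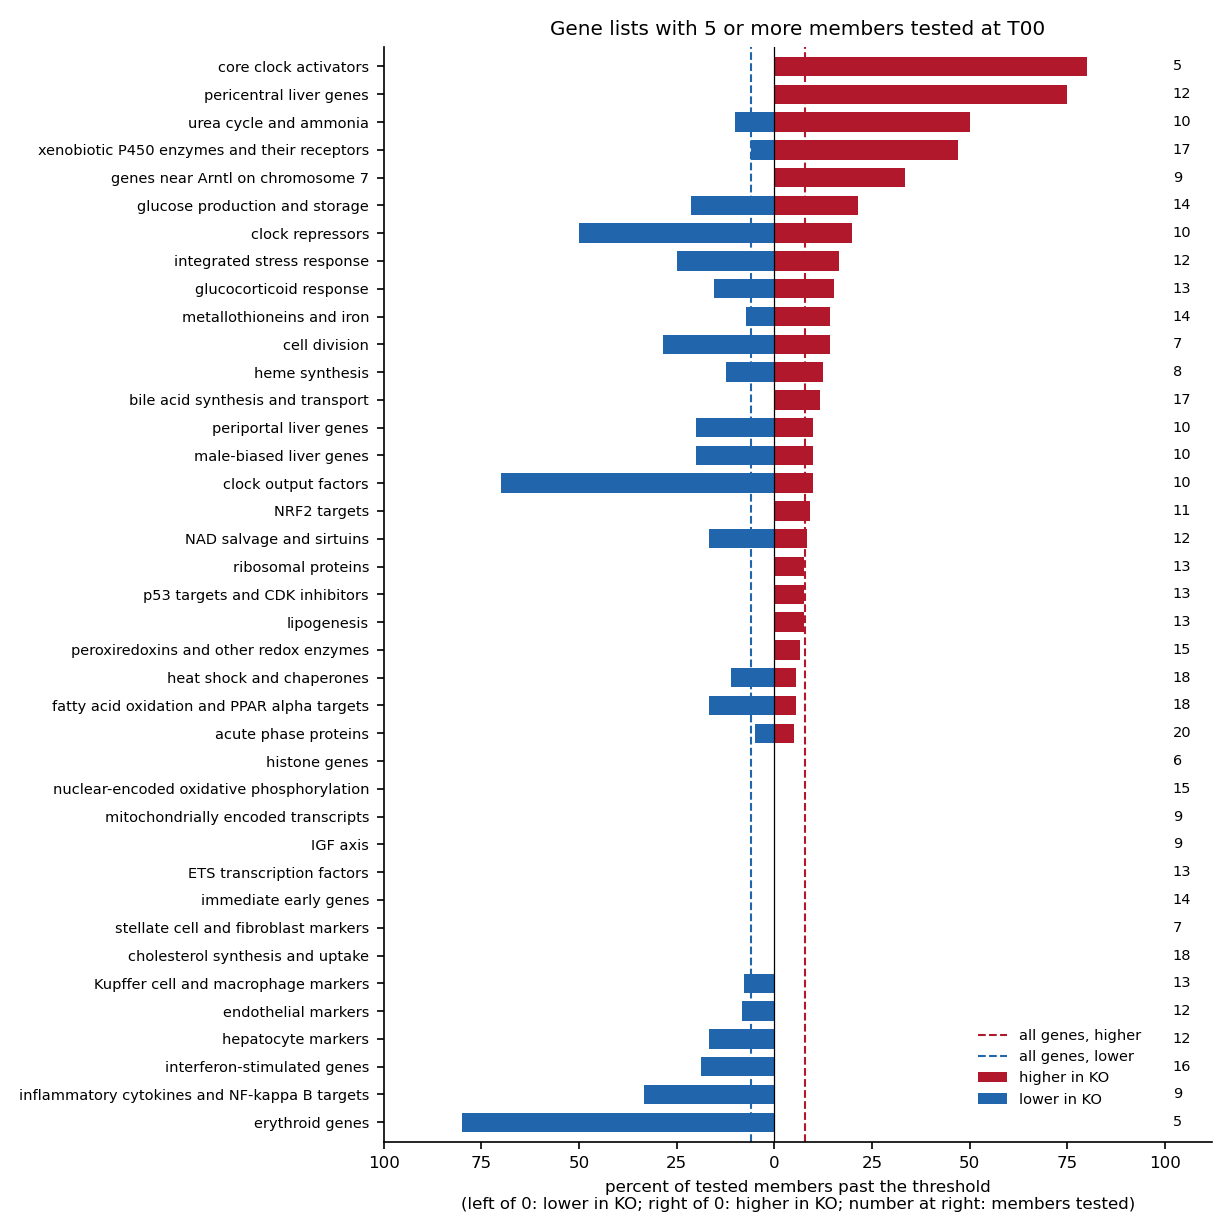
Share of tested members higher in KO (red, right of 0) and lower in KO (blue, left of 0) for each list with at least 5 members tested, whose number stands at the right, and dashed lines for the same shares over all genes (7.86% and 5.91%). Clock activators and pericentral genes extend farthest right, and erythroid genes and clock outputs farthest left.

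Whether a T00 difference was particular to T00 was tested by the contrast of KO minus WT at T00 with its mean over T06, T12 and T24, in all 24 libraries. Of 12547 genes, 90 passed (0.717%), 65 (0.518%) with a higher and 25 (0.199%) with a lower KO minus WT at T00. Within the later times the same test by genotype called 82 genes at T06 (0.665%, with 0.405% higher and 0.259% lower in KO), 20 at T12 (0.164%, with 0.0327% higher and 0.131% lower) and 510 at T24 (4.14%, with 1.28% higher and 2.87% lower). These counts depend on the spread between libraries as well as on the size of a difference. At T12, for example, Lpl differed by 3.37 ± 0.39 (adjusted p = 0.056) and Npas2 by 2.19 ± 0.41 (adjusted p = 0.239) without passing. Their differences at T00 were 4.39 ± 0.19 and 3.16 ± 0.08. The counts alone therefore do not measure how far the genotypes came together. The 90 genes of the contrast became 108 without the KO libraries of number 1, 58 without KO 2 and 42 without KO 3. They became 45 without WT 1, 32 without WT 2 and 45 without WT 3, where each fit left out all 4 libraries of that genotype and number.

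Several genes differed widely at T00 and lay closer in the genotypes later. For Cdkn1a the contrast was 2.76 ± 0.22 (adjusted p = 1.51e-06). At T06 it averaged 94.4 ± 14.8 FPKM in KO and 83.5 ± 13.3 FPKM in WT, and at T24 170.2 ± 23.9 FPKM in KO and 123 ± 4.85 FPKM in WT (SD, n = 3 each). Ndrg1, a stress- and hypoxia-responsive gene, had 19.1, 32.9 and 24.4 FPKM in KO liver, against 1.95, 2.47 and 3.22 FPKM in WT liver at T00 and averaged 58.5 ± 5.64 FPKM in KO and 45 ± 1.05 FPKM in WT at T06. Its contrast was 2.64 ± 0.22 (adjusted p = 1.83e-06). Nfil3 averaged 25 ± 2.73 FPKM in KO and 23 ± 4.57 FPKM in WT at T06, and its contrast was 1.42 ± 0.21 (adjusted p = 0.00144). Chka, choline kinase alpha, had 20.4, 58.6 and 66.5 FPKM in KO liver, against 6.67, 3.68 and 4.93 FPKM in WT liver at T00 (adjusted p = 0.0149), lost without KO 2, KO 3 or WT 2 (adjusted p 0.0504 to 0.0591). Its contrast of 2.54 ± 0.41 (adjusted p = 0.00374) was lost without KO 3 or WT 2 (adjusted p 0.0649 to 0.0809). Pdk4 averaged 32.1 ± 12.8 FPKM in KO and 24.8 ± 13.6 FPKM in WT at T12, and its contrast of 1.84 ± 0.40 (adjusted p = 0.0356) was lost without KO 2, KO 3, WT 1, WT 2 or WT 3 (adjusted p 0.0941 to 0.294).

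Clock genes were among those with a larger difference at T00. Arntl averaged 2.12 ± 0.418 FPKM in KO and 0.986 ± 0.229 FPKM in WT at T06, 2.05 ± 0.478 FPKM in KO and 1.74 ± 0.362 FPKM in WT at T12 and 2.15 ± 0.42 FPKM in KO and 2.76 ± 0.368 FPKM in WT at T24. Its contrast was 1.41 ± 0.18 (adjusted p = 3.84e-04), and KO lay above WT at T00 but not at T24. Cry1 kept KO above WT at every time, with 11.8 ± 1.13 FPKM in KO and 5.41 ± 0.672 FPKM in WT at T24, and its contrast was 1.45 ± 0.18 (adjusted p = 2.96e-04). Dbp kept KO below WT at every time, with 0.358 ± 0.0687 FPKM in KO and 8.15 ± 1.18 FPKM in WT at T24, and its contrast was -1.39 ± 0.12 (adjusted p = 3.87e-06). For Per3 the contrast was -1.02 ± 0.18 (adjusted p = 0.00611), lost without KO 2, KO 3, WT 1 or WT 2 (adjusted p 0.0531 to 0.0781) and with a pseudocount of 0.1 FPKM (adjusted p = 0.175), and for Nr1d2 -0.89 ± 0.18 (adjusted p = 0.0205), lost without KO 2, KO 3, WT 1, WT 2 or WT 3 (adjusted p 0.0831 to 0.147). Bhlhe41 had a smaller difference at T00 than later: KO was below WT at every time, with 0.153 ± 0.123 FPKM in KO and 12.8 ± 4.31 FPKM in WT at T06. Its contrast of 2.60 ± 0.31 (adjusted p = 2.08e-04) was lost with a pseudocount of 0.1 FPKM (adjusted p = 0.0643).

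Among genes called in this contrast, the means of several stood in the opposite order at a later time. Examples are Glul, Sult1e1, Noct and Coq10b, in differences that did not pass the test there. Other examples are Arntl, Nfil3 and Ndrg1 at T24, Cdkn1a at T12 and Pdk4 at T06. Insc, called higher in KO at T00, was called lower at T24 (-2.15 ± 0.31, adjusted p = 0.031). It averaged 0.687 ± 0.387 FPKM in KO and 6.63 ± 2.34 FPKM in WT at T24, and its contrast did not pass (adjusted p = 0.0687). Glul averaged 201 ± 34.4 FPKM in KO and 285 ± 69.4 FPKM in WT at T06 and 81.3 ± 31.4 FPKM in KO and 206 ± 32.1 FPKM in WT at T24 (adjusted p = 0.481 at T06 and 0.0595 at T24), against a higher KO at T00. Its contrast was 2.50 ± 0.44 (adjusted p = 0.00611), lost without WT 1, WT 2 or WT 3 (adjusted p 0.0507 to 0.0831). Glns-ps1, a processed pseudogene copy of Glul, followed with a T00 difference of 1.77 ± 0.10 and a contrast of 2.72 ± 0.41 (adjusted p = 0.00205), and its reads cannot be told apart from those of Glul. Sult1e1 averaged 21.2 ± 5.96 FPKM in KO and 1.05 ± 0.728 FPKM in WT at T06 and 11.7 ± 5.93 FPKM in KO and 38.8 ± 15.4 FPKM in WT at T24 (adjusted p = 0.0684), and its contrast was 4.16 ± 0.65 (adjusted p = 0.00252). Among genes lower at T00, Noct, a deadenylase-like phosphatase with daily rhythm, had 1.16, 3.48 and 2.13 FPKM in KO liver, against 12.1, 13.8 and 7.1 FPKM in WT liver (adjusted p = 0.0186), lost without KO 3, WT 1 or WT 2 (adjusted p 0.0566 to 0.068). It averaged 12.7 ± 4.22 FPKM in KO and 7.45 ± 0.468 FPKM in WT at T24 (adjusted p = 0.134), and its contrast of -1.97 ± 0.43 was lost without KO 3, WT 1, WT 2 or WT 3 (adjusted p 0.115 to 0.246). Coq10b, of coenzyme Q function, had 9.61, 7.98 and 6.63 FPKM in KO liver, against 42.8, 54.2 and 33.5 FPKM in WT liver (adjusted p = 0.00279) and averaged 25.5 ± 2.18 FPKM in KO and 21.6 ± 3.23 FPKM in WT at T24 (adjusted p = 0.342). Its contrast of -1.61 ± 0.28 was lost without KO 3 or WT 1 (adjusted p 0.0655 to 0.072). Col27a1, a fibrillar collagen gene, had 0.536, 0.49 and 0.369 FPKM in KO liver, against 7.04, 14.4 and 5.08 FPKM in WT liver (adjusted p = 0.0078), with KO below WT also at each later time, and its contrast of -1.68 ± 0.31 was lost without KO 2, KO 3 or WT 1 (adjusted p 0.0717 to 0.136). The small RNA genes Gm25397 and Gm26153 were listed at 0 in all KO libraries at T00 and at 82.4 to 412 FPKM and 12.1 to 40.9 FPKM in WT. Such small RNAs are largely without poly(A) tails, by which these libraries were selected, and no fold is given.

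**Figure D5:**
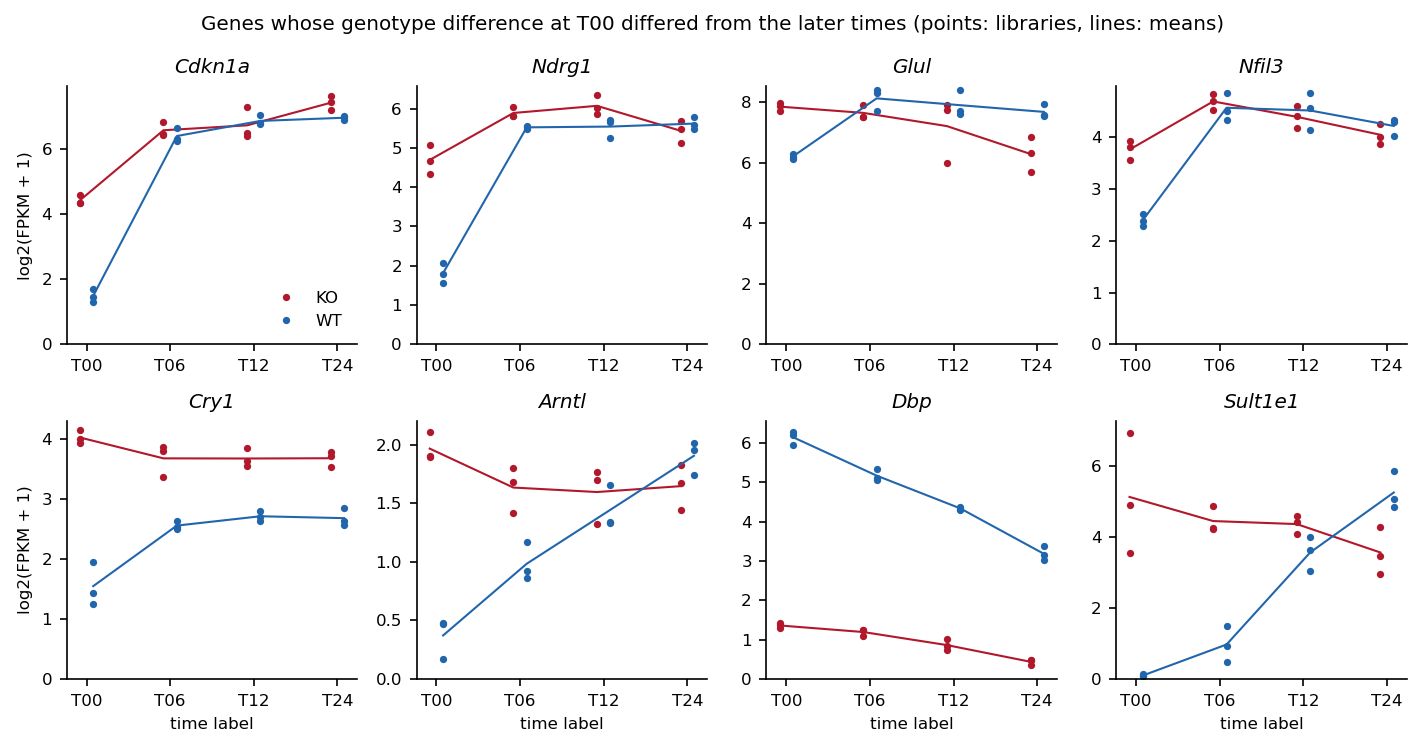
Each point is 1 library, as log2(FPKM + 1), for KO (red, drawn left) and WT (blue, drawn right) at T00, T06, T12 and T24, with lines through the means of 3 libraries. Cdkn1a, Ndrg1 and Nfil3 are far apart at T00 and closer from T06, with means that change order at T12 or T24. The means of Arntl, Glul and Sult1e1 also cross, and Cry1 and Dbp stay apart throughout.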

How the data were processed

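Poly(A)-selected RNA from liver was sequenced from stranded libraries, per the labels' protocols. TopHat2 2.1.0, Cuffdiff and the GRCm38 build are named in the submitters' processing notes. The deposited table holds FPKM per gene, computed by the authors, for 47631 gene rows in 24 libraries, with 2 runs in 1 column. The scaling between libraries and any use of strand were not stated. Rows were matched to symbols (47217) and to GENCODE M21 positions. FPKM are not counts, so no count test was used. Values were taken as log2(FPKM + 1), genes averaging 1 FPKM or more were kept, and a fold on this scale understates the change of low genes. Genotype was tested with limma 3.58.1 in R 4.3.3 (two-sided moderated test with a variance trend, Benjamini-Hochberg over all genes tested, called at an adjusted p below 0.05), and T00 against the later times as a contrast in 8 group means. Scripts were tested on simulated data. Some list members are counted but not reported by name here. Named genes are the clock lists, the 12 highest and 12 lowest called differences (groups not overlapping, at least 5 FPKM, numbered gene models passed over), up to 3 members of each other list by p, and the 5 highest and 5 lowest of the T00 contrast. Other list members called at T00 and some that were not were added after their values were seen. The comparison, its members and the gene lists were chosen with earlier results of these data known. Alternatives changed the pseudocount (0.1), filter, scaling, variance trend, block, libraries fitted and size limit, and left out each library.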

Additional observations from a re-analysis of the deposited data

Results flagged for a closer look

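The genotype difference at T00 differed from its mean over the later times in 90 genes (limma contrast, adjusted p below 0.05). Among named genes and members of the gene lists, those with a higher KO minus WT at T00 were Sult1e1 (4.16 on the log2 scale), Cdkn1a (2.76), Glns-ps1 (2.72), Ndrg1 (2.645), Bhlhe41 (2.60), Chka (2.54), Glul (2.50), Ppp1r3c (2.26), Pdk4 (1.84), Loxl4 (1.68), Cry1 (1.45), Nfil3 (1.42) and Arntl (1.41). Those with a lower KO minus WT at T00 were Noct (-1.97), Col27a1 (-1.685), Coq10b (-1.61), Nat8 (-1.54), Dbp (-1.39), Fgf21 (-1.29), Per3 (-1.02) and Nr1d2 (-0.89). Gm25397 (adjusted p = 0.0205) and Gm26153 (adjusted p = 3.61e-07) were also called, with no fold since they are listed at 0 in every KO library at T00. Loxl4 was not called without KO 2, WT 1, WT 2 or WT 3 (adjusted p 0.0553 to 0.0883), and Nat8 without KO 2, KO 3 or WT 3 (adjusted p 0.058 to 0.11) and with a pseudocount of 0.1 FPKM (adjusted p = 0.495). Nat8 was listed at 0 in every KO library at T24. The Ppp1r3c contrast was lost without KO 1, KO 2, KO 3, WT 1, WT 2 or WT 3 (adjusted p 0.0556 to 0.283). Fgf21, a liver hormone, was below the 1 FPKM limit at T00, and its contrast was lost without KO 1, KO 2, WT 1, WT 2 or WT 3 (adjusted p 0.0887 to 0.188). The Gm25397 contrast was lost without KO 1, KO 2, KO 3, WT 1 or WT 2 (adjusted p 0.0795 to 0.21). Groups of 3 libraries are too small for a test of single outlying samples.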

How the results depend on the processing

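The T00 count of 1580 genes (902 higher, 678 lower in KO) and the 104 list members stayed within 1.5 times of these values with a pseudocount of 0.1, median-of-ratios scaling, no variance trend and genes listed at 0 left out. No named gene reversed in any setting of a comparison that called it, and 48 of 103 named genes called at T00 passed in every setting that tested them. Some named genes that were not called, such as Per2 and Bhlhe40, changed sign in some settings. Without a filter on low values, list members called fell to 68. With all 24 libraries in 1 fit, 672 genes were called (382 higher, 290 lower), with 64 list members, and 37 of the 103 named genes lost their call. With a size limit of 1 on the log2 scale 368 were called (225 higher, 143 lower). Leaving out 1 library gave 532 to 1459 genes in all, 336 to 840 higher, 196 to 619 lower and 47 to 94 list members. The replicate block gave 572 genes (359 higher, 213 lower) and 54 list members, and 36 of the 103 named genes lost their call. Equal numbers shared deviations with r of 0.024, 0.084 and -0.029, so they were not taken as pairs. For the T00 contrast of 90 genes (65 higher, 25 lower), the block on genotype and number gave 38 lower, and T00 against T24 alone gave 640 (386 higher, 254 lower). Leaving out 1 number gave 32 to 108 genes, 23 to 78 higher and 7 to 30 lower. The KO T24 library of number 2 correlated least with the rest (median r 0.777), and without it, an alternative chosen after seeing the data, 84 genes passed. With genes listed at 0 in any of the 24 libraries left out, also chosen after seeing the data, 96 passed. The causes were not tested. Depth is unknown, 1 time point cannot separate level from phase, and 3 libraries a group limit the precision.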
